A study of Homo sapiens with 8 samples.

Results

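The 10 genes described here encode cytokines and receptors of the interleukin 1 (IL-1) and interleukin 6 (IL-6) families. For IL-1 these are the ligands IL1A, IL1B, IL18 and IL33 and the receptor IL1R1, and for IL-6 the ligands IL6, IL11 and LIF and the receptors IL6ST and LIFR. They were taken by symbol from a table of 27946 genes and 65572 transcript rows, and where a gene had more than 1 row, as 8 of the 10 did, the row was chosen by its mean FPKM over all libraries. Of the 10 genes, 9 passed the filter on low values and were tested, among 13790 genes in all, and IL1R1 did not pass. The cells are EA.hy926, an established human line made by fusing umbilical vein endothelial cells with lung carcinoma cells. Total RNA, after removal of ribosomal RNA, was sequenced in 2 libraries of control cells, in 3 of clonal lines in which CRISPR/Cas9 had removed E2 (ΔE2), an enhancer of the endothelial super-enhancer SE12313, and in 3 of lines, again clonal, that lack SE12313-b (ΔSE12313-b), a neighbouring stretch of the same super-enhancer that was inactive as an isolated enhancer. Cells of all groups grew in high glucose DMEM with fetal bovine serum, and no cytokine or inhibitor is listed for any group. Each deletion line is 1 clone and the control is not described as one, so the effects of a deletion and of growing a line from 1 cell cannot be told apart. The labels do not say whether both control libraries came from separate cultures, so p values measure the spread between libraries, and both deletions were compared with the same 2 controls.

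Ligands of the IL-1 family signal through paired receptors that share a cytoplasmic domain with Toll-like receptors, and the adaptor MYD88 and kinases of the IRAK family pass the signal on to NF-kB. IL-1α, IL-1β and IL-18 are made as precursors, and caspase-1 of the inflammasome cleaves those of IL-1β and IL-18, whereas IL-33 is stored in the nucleus, as is known for endothelial cells. Ligands of the IL-6 family bind a receptor of their own and the shared signal-transducing chain gp130, the product of IL6ST, which activates JAK kinases and STAT3. LIF uses gp130 with LIFR, and IL-6 and IL-11 use gp130 with IL6R and IL11RA. SOCS proteins made in response to STATs inhibit the same pathway.

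The deposited unit is FPKM, the reads per kilobase of transcript scaled to the reads of the library, so levels can be set side by side between genes. The values were whole multiples of 1 read, from which the reads behind each were recovered, and control libraries held 12067560 and 12696180 reads, ΔE2 libraries 13616460 to 19101140 and ΔSE12313-b libraries 14814170 to 16085530. Read counts of both controls differed by little more than counting noise (chi-square of 1.19 per degree of freedom), and pairs of clones differed by more (3.98 to 20.7 for ΔE2, 8.34 to 22.8 for ΔSE12313-b). Of 10 endothelial markers, 0 were at 3 reads or fewer in all libraries of a group, and their summed FPKM was 312.1 and 312.4 for the controls, 334 to 522 for ΔE2 clones and 334 to 453 for ΔSE12313-b clones. Of the 9 that were tested, loss of E2 upregulated 3 (ERG, PECAM1 and ESAM) and downregulated 1 (VWF, log2 fold change -1.72), and loss of SE12313-b upregulated 2 (ERG and PECAM1) and downregulated 1 (VWF, -1.80). The summed FPKM of 8 epithelial markers was 361 and 363 for the controls, 1084 to 1210 for ΔE2 clones and 811 to 1069 for ΔSE12313-b clones, with KRT7, KRT8 and KRT18 upregulated by both deletions, while CDH1 and ELF3 held 3 reads or fewer in every library. EPCAM, with 12 and 5 reads in the controls, 4 to 7 in ΔE2 and 0 to 3 in ΔSE12313-b, and CLDN4, with 10 and 5, 0 to 3 and 3 to 5 reads, were too low to be tested. The part of this difference in the results below was not tested. Of 10 leukocyte markers, PTPRC, CD14, CD3E, TYROBP and SPI1 held 3 reads or fewer in every library, and the summed FPKM of the list was 28.4 and 30.3 for the controls, 25.1 to 27.4 for ΔE2 clones and 36.3 to 40.9 for ΔSE12313-b clones, most of it from CD68 (a mean of 28.9, 24.4 and 37.5 FPKM in the same order). LYZ, a marker of myeloid cells, had 6 and 2 reads in the controls, 20, 69 and 33 in ΔE2 and 1 to 5 in ΔSE12313-b, and was upregulated in ΔE2 (log2 fold change 2.40; adjusted p = 0.0132), where it had passed the filter on low values through the ΔE2 clones alone. The part of LYZ in the results below was not tested. Of 10 fibroblast or smooth muscle markers, COL1A2, PDGFRA, DCN and LUM held 3 reads or fewer in every library, and the summed FPKM was 5.686 and 7.003 for the controls, 1.03 to 2.26 for ΔE2 clones and 1.19 to 1.99 for ΔSE12313-b clones, with ACTA2 downregulated by both deletions.

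The upstream sequences of IL1A, IL1B and IL11, the 3 genes that were downregulated in both deletions (IL11 having passed the filter on low values only through the controls), are shown to let their promoters be compared. They come from GRCh37, the build of the files, with the start of the transcript taken from the table. The stretch of IL1A is the last 150 bases before its start (chr2:113542976-113543125, minus strand), that of IL11 likewise (chr19:55881832-55881981, minus strand), and that of IL1B runs from base 200 to base 51 before its start (chr2:113594407-113594556, minus strand). Each is written 5′ to 3′ along the gene, and capitals mark the letters found by a search for short motifs:
IL1A: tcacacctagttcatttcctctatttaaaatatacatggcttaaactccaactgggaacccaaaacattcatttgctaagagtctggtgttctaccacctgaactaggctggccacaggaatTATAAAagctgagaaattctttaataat
IL1B: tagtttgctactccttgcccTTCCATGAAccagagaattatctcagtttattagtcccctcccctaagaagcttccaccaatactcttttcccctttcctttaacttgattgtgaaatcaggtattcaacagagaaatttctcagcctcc
IL11: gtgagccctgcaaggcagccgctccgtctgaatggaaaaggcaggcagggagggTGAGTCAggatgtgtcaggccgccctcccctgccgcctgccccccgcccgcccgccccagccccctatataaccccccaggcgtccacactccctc

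The search covered 250 bases upstream of all 10 genes and of 27862 genes in all, on both strands, for 4 patterns, and no 2 of the matches in these genes overlap. A STAT pattern (TTCNNNGAA) was present upstream of IL1B, LIF and LIFR and in 6.33% of all windows. An AP-1 pattern (TGANTCA) was present upstream of IL11 and IL6 and in 6.13% of all windows. TATAAA was found upstream of IL1A and IL33 (10.6% of all windows), and the NF-kB consensus was found upstream of IL6, at bases 15 to 6 before its start (5.20% of all windows). IL18, IL1R1 and IL6ST had none of the 4 in this window. The row kept for IL33 starts inside the gene as other rows give it, so its window is not the promoter of those transcripts. No pattern was shared by IL1A, IL1B and IL11. A match says only that these letters are there.

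In control cells IL1B was the most abundant of the 10 transcripts, at 160 ± 3.68 FPKM (mean ± SD, n = 2), followed by IL1A at 19.3 ± 0.810, IL6ST at 9.44 ± 0.478, IL18 at 6.60 ± 0.641 and IL33 at 5.77 ± 0.0757. IL11 (2.64 ± 0.170), LIF (1.77 ± 0.196), LIFR (0.956 ± 0.267) and IL6 (0.582 ± 0.0693) were lower. The 2 control values of each gene did not overlap those of the next in this order. The mean FPKM over all 8 libraries, which is what selected the rows, ran from 42.7 for IL1B and 21.0 for IL6ST to 0.321 for IL6 and 0.00838 for IL1R1, and it differed little between the rows of a gene. For IL33 it was 4.38 in the row kept and 4.23 in the next of 9 rows, for LIF 1.00 and 0.984, and for IL11 0.908 and 0.804. In ΔE2 the order was headed by IL6ST, IL18, IL1A, IL1B and IL33, with no overlap between neighbours, and the values of LIFR, IL11, LIF and IL6 overlapped. In ΔSE12313-b, IL6ST and IL18 also came first, the values of IL33 overlapped those of IL1A and the values of IL1A those of IL1B, and LIFR and LIF overlapped.

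**Figure D1:**
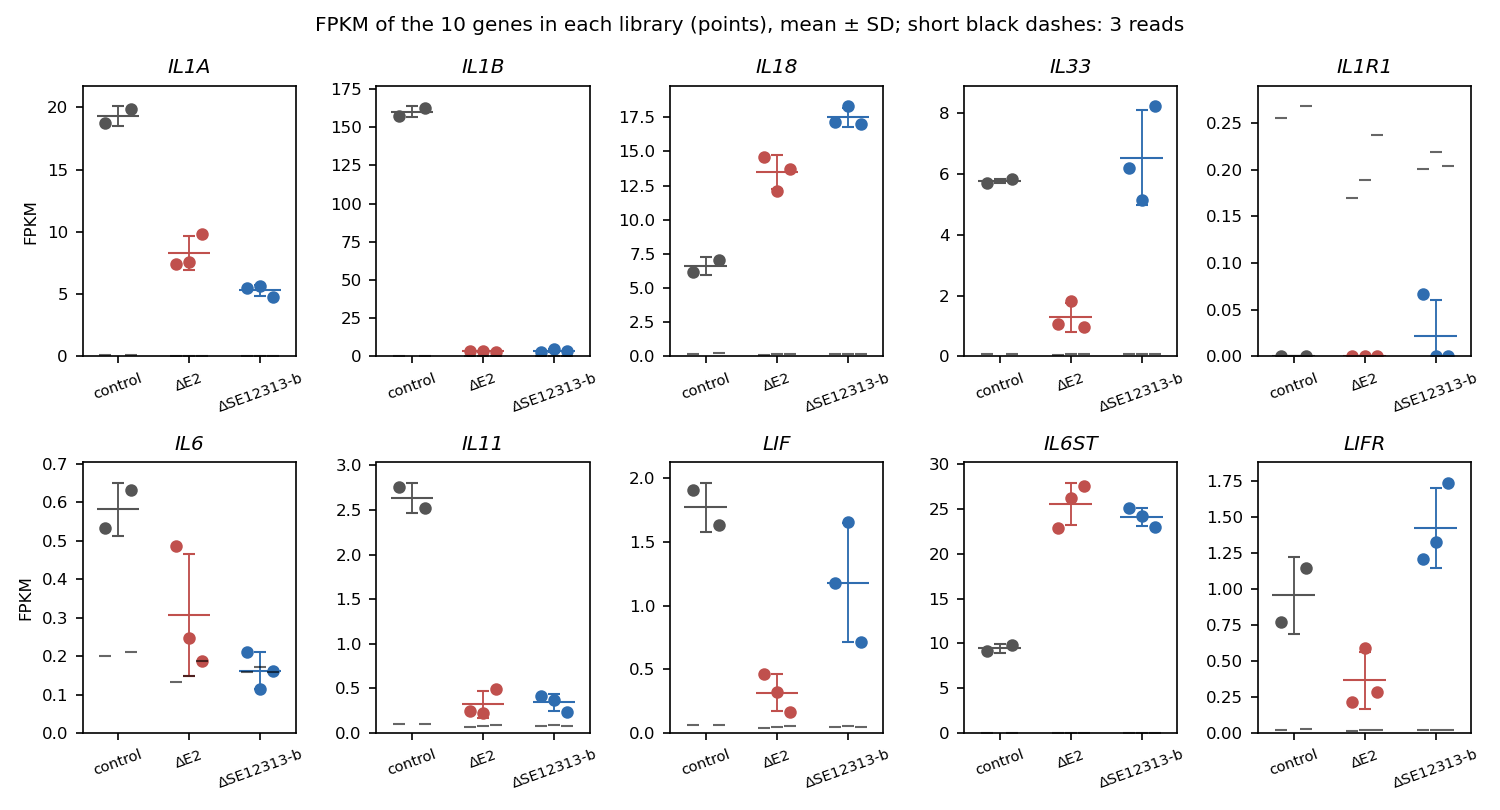
FPKM (linear axis from 0) of the 10 genes in each library, by group, as points with mean ± SD (control n = 2, ΔE2 and ΔSE12313-b n = 3 each); short black dashes give the FPKM of 3 reads in each library. IL1B fell from 158 and 163 in the controls to at most 4.99 in any clone, IL6ST rose in all 6 clones, and IL33 was lower in ΔE2 alone.

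Against the control, ΔE2 upregulated 2 of the 9 tested genes (IL18 and IL6ST) and downregulated 6 (IL1A, IL1B, IL33, IL11, LIF and LIFR), and IL6 did not pass. A gene was called up- or downregulated at an adjusted p under 0.05 (limma with Benjamini-Hochberg adjustment over all tested genes) and a change of at least 2-fold. Of all 13790 genes, 11.2% were upregulated and 8.36% were downregulated by these limits. ΔSE12313-b upregulated the 2 genes IL18 and IL6ST and downregulated 4 (IL1A, IL1B, IL6 and IL11), and IL33, LIF and LIFR did not pass, while 14.7% of all genes were upregulated and 7.83% were downregulated. IL6 and IL11 passed the filter on low values only through the 2 controls, since all 6 clones lay below the 0.5 FPKM it asks for, so a lower value in the clones was built in and the counts are no support for a direction of the families. For the 9 genes the median log2 fold change stood at -1.24 (ΔE2) and -0.61 (ΔSE12313-b), beside 0.14 and 0.27 for all genes. Both medians include IL6 and IL11, so they too are no support for a direction of the families. Log2 fold changes are on the scale of log2(FPKM + 0.1), which understates the change of low genes. With each library centred on its median ratio to the mean library, ΔE2 upregulated 1 and downregulated 6, since IL18 no longer reached 2-fold, beside 8.48% of all genes upregulated and 10.6% downregulated.

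IL1B encodes IL-1β, a cytokine that activates endothelium. Its level was 158 and 163 FPKM in the controls (2978 and 2924 reads), 3.62, 3.65 and 2.76 for ΔE2 (103, 93 and 56 reads) and 2.76, 4.99 and 3.59 for ΔSE12313-b (66, 110 and 85 reads). All 6 clones lay far below both controls, and the clones of both deletions overlapped. On the log2 scale the fall was -5.55 ± 0.23 (SE) upon loss of E2 and -5.41 ± 0.23 upon loss of SE12313-b (adjusted p 1.13e-06 and 1.28e-06), which is 46.9-fold and 42.5-fold lower. Between both deletions the log2 difference was -0.14 (95% interval -0.62 to 0.33; adjusted p = 0.648). Since these are bulk RNA samples, fewer expressing cells and less RNA per cell cannot be told apart.

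IL1A lies 44361 bases from IL1B on chromosome 2 and encodes IL-1α, which acts on the same receptor. It held 18.7 and 19.9 FPKM in the controls, 7.45, 7.61 and 9.85 in ΔE2 and 5.49, 5.66 and 4.80 in ΔSE12313-b. The 3 groups did not overlap, with the control highest and ΔSE12313-b lowest. Its log2 fold change was -1.22 ± 0.14 in ΔE2 (adjusted p = 0.000219) and -1.84 ± 0.14 in ΔSE12313-b (adjusted p = 2.12e-05). The level in ΔE2 exceeded that in ΔSE12313-b by 0.63 on the log2 scale (95% interval 0.34 to 0.91; adjusted p = 0.00901), less than 2-fold. As IL1B fell more than its neighbour, the ratio of IL1B to IL1A went from 8.41 and 8.19 in the controls to between 0.280 and 0.486 in ΔE2 and between 0.502 and 0.881 in ΔSE12313-b. The order of both levels was thus turned in every clone.

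IL18 encodes IL-18, which induces interferon γ in lymphocytes, and in contrast to IL1A and IL1B it rose. The controls had 6.15 and 7.05 FPKM, ΔE2 lines 14.6, 12.1 and 13.7, and ΔSE12313-b lines 17.1, 18.3 and 17.0. The 3 groups did not overlap. It rose by 1.02 ± 0.10 on the log2 scale in ΔE2 (adjusted p = 0.000134) and by 1.40 ± 0.10 in ΔSE12313-b (adjusted p = 2.18e-05), and ΔE2 fell short of ΔSE12313-b by a log2 difference of -0.38 (95% interval -0.59 to -0.16; adjusted p = 0.0225). In ΔE2 the rise lay just past 2-fold and dropped under that limit without control replicate 1 (0.92), without ΔE2 replicate 1 (0.96), with centred libraries (0.86) and after quantile normalization (0.83). IL1B exceeded IL18 by 25.6 and 23.1 times in the controls, and in the clones the ratio of IL1B to IL18 was between 0.161 and 0.301.

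IL33, whose product is known as a nuclear alarmin of endothelial cells, had the largest difference between the deletions of the 4 IL-1 ligands tested. Its values were 5.72 and 5.83 FPKM in the controls, 1.07, 1.84 and 0.959 in ΔE2, and 6.21, 5.16 and 8.24 in ΔSE12313-b. The ΔE2 clones lay below all other libraries, and the ΔSE12313-b clones lay on both sides of the controls. In ΔE2 the log2 fold change was -2.13 ± 0.28 (adjusted p = 0.000472). In ΔSE12313-b it was 0.15 ± 0.28 (95% interval -0.50 to 0.80; adjusted p = 0.665), and its sign turned with centred libraries (-0.14), after quantile normalization (-0.13) and without ΔSE12313-b replicate 3 (-0.027). Both deletions compared directly differed by -2.28 (95% interval -2.87 to -1.70; adjusted p = 0.0011). All 9 transcript rows of IL33 gave the same calls, with log2 fold changes from -2.22 to -2.11 in ΔE2.

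IL1R1, the signalling receptor of IL-1α and IL-1β, was at the floor. None of its 10 rows held more than 2 reads in any library, and the row kept showed 0 reads for both controls, 0 for the 3 ΔE2 clones, and 1 read for 1 of the ΔSE12313-b clones. With 3 reads taken as the upper limit of a count of 0, up to 0.268 FPKM could have gone unseen in this row of 927 bases. This limit covers counting error only. The other 9 rows each held at least 1 read in a control. In the longest of them, of 5193 bases, 3 reads correspond to at most 0.0479 FPKM. A difference between groups was not detectable at this depth.

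**Figure D2:**
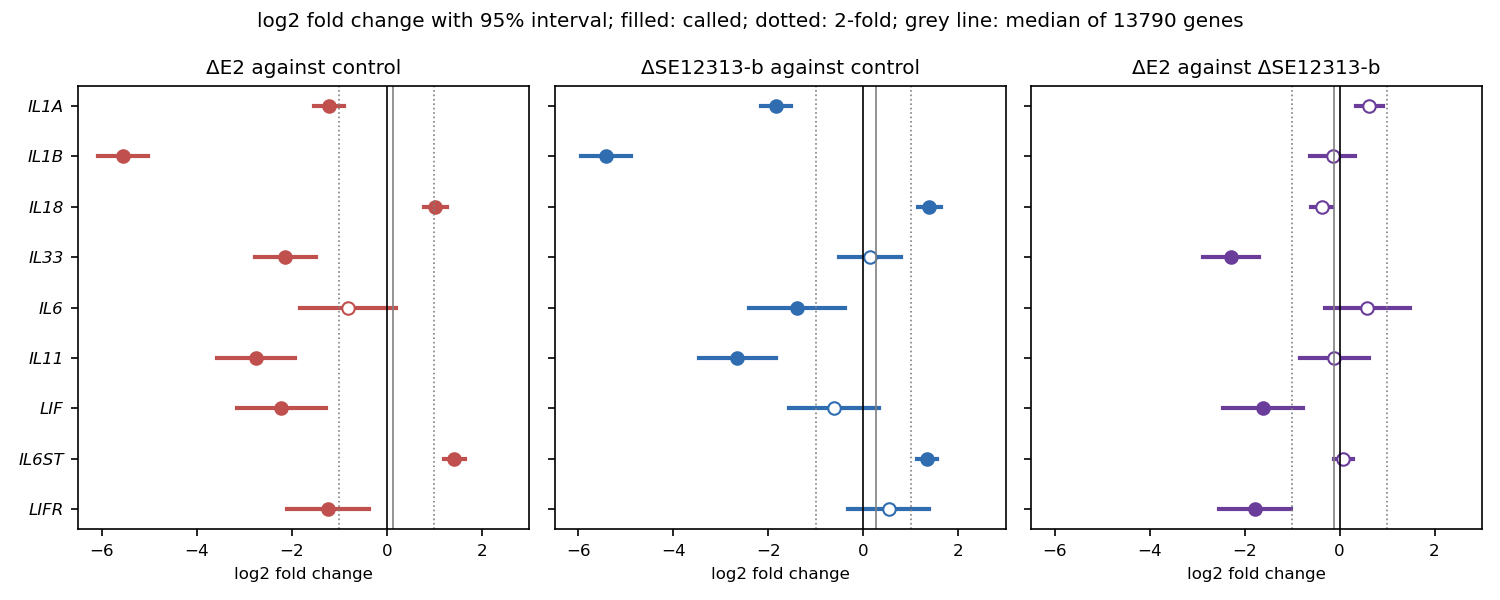
Log2 fold change of the 9 tested genes (points) with 95% interval (lines) for each deletion against the control and, on the right, for ΔE2 relative to ΔSE12313-b; filled points passed an adjusted p under 0.05 and 2-fold (dotted lines), and the grey line is the median of all tested genes (0.14, 0.27 and -0.11). IL1B has the largest change in both deletions, and IL33, LIF and LIFR are the filled points between the deletions.

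Among the ligands of the IL-6 family, IL11 fell in both deletions. IL-11 acts on stromal and haematopoietic cells, and its gene had 2.76 and 2.52 FPKM in the controls (83 and 72 reads), 0.243, 0.222 and 0.496 in ΔE2 (9 to 16 reads) and 0.420, 0.370 and 0.239 in ΔSE12313-b (9 to 16 reads). All 6 clones lay below both controls, through which alone the gene had passed the filter. IL11 changed by -2.76 ± 0.35 (log2) upon loss of E2 and by -2.65 ± 0.35 upon loss of SE12313-b (adjusted p 0.000411 and 0.000404), which is 6.77-fold and 6.27-fold lower, and the difference between the deletions was -0.11 (95% interval -0.84 to 0.62). The sign of that difference turned with centred libraries (0.019).

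LIF, the leukaemia inhibitory factor, held 1.91 and 1.63 FPKM in the controls, 0.462, 0.324 and 0.167 in ΔE2 and 1.18, 1.65 and 0.714 in ΔSE12313-b. The ΔE2 clones lay below every other library, and 1 of the ΔSE12313-b clones lay between the controls. LIF had a log2 fold change of -2.22 ± 0.41 in ΔE2 (adjusted p = 0.00246) and -0.61 ± 0.41 in ΔSE12313-b (95% interval -1.55 to 0.33; adjusted p = 0.227). The difference between the deletions was -1.61 ± 0.36 (adjusted p = 0.0153). Without ΔSE12313-b replicate 1 that difference was -1.58 with an adjusted p of 0.0501.

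IL6, the founding cytokine of its family, was close to the floor in all groups, at 0.533 and 0.631 FPKM in the controls (8 and 9 reads), 0.487, 0.247 and 0.186 in ΔE2 (11, 5 and 3 reads) and 0.210, 0.114 and 0.160 in ΔSE12313-b (4, 2 and 3 reads). IL6 had a log2 fold change of -0.81 ± 0.43 in ΔE2 (95% interval -1.82 to 0.20; adjusted p = 0.149) and -1.40 ± 0.43 in ΔSE12313-b (adjusted p = 0.0243). The call in ΔSE12313-b was lost without ΔSE12313-b replicate 2 (adjusted p = 0.0571), after quantile normalization (0.0844 as adjusted p) and with a block for the replicate number (0.0664 as adjusted p). The difference between the deletions was 0.59 (95% interval -0.31 to 1.49).

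Both receptors of the IL-6 family among the 10 genes moved in different ways. IL6ST had 9.10 and 9.78 FPKM in the controls (1044 and 1066 reads), 22.9, 26.3 and 27.6 in ΔE2 and 25.1, 24.2 and 23.0 in ΔSE12313-b (3242 to 4062 reads over all 6 clones). The clones of both deletions overlapped and all lay above both controls. The rise was 1.43 ± 0.095 on the log2 scale in ΔE2 (adjusted p = 1.47e-05) and 1.34 ± 0.095 in ΔSE12313-b (adjusted p = 1.63e-05), with a difference of 0.082 (95% interval -0.11 to 0.28). After quantile normalization the value in ΔSE12313-b was 0.99, just under 2-fold.

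LIFR held 0.767 and 1.14 FPKM in the controls, 0.218, 0.592 and 0.284 in ΔE2 and 1.20, 1.33 and 1.74 in ΔSE12313-b. The ΔE2 clones lay below the controls and the ΔSE12313-b clones above them. LIFR changed by -1.24 ± 0.37 on the log2 scale in ΔE2 (adjusted p = 0.0227) and 0.54 ± 0.37 in ΔSE12313-b (95% interval -0.32 to 1.40; adjusted p = 0.243), and the deletions differed by -1.78 ± 0.33 (adjusted p = 0.00734). The call against the control in ΔE2 was lost without control replicate 2 (-0.98; adjusted p = 0.162), without ΔE2 replicate 1 (-1.01; adjusted p = 0.0583) and without ΔE2 replicate 3 (-1.15; adjusted p = 0.063). The ratio of IL6ST to LIFR was 11.9 and 8.55 in the controls, 44.3 to 105 in ΔE2 and 13.3 to 20.8 in ΔSE12313-b.

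**Figure D3:**
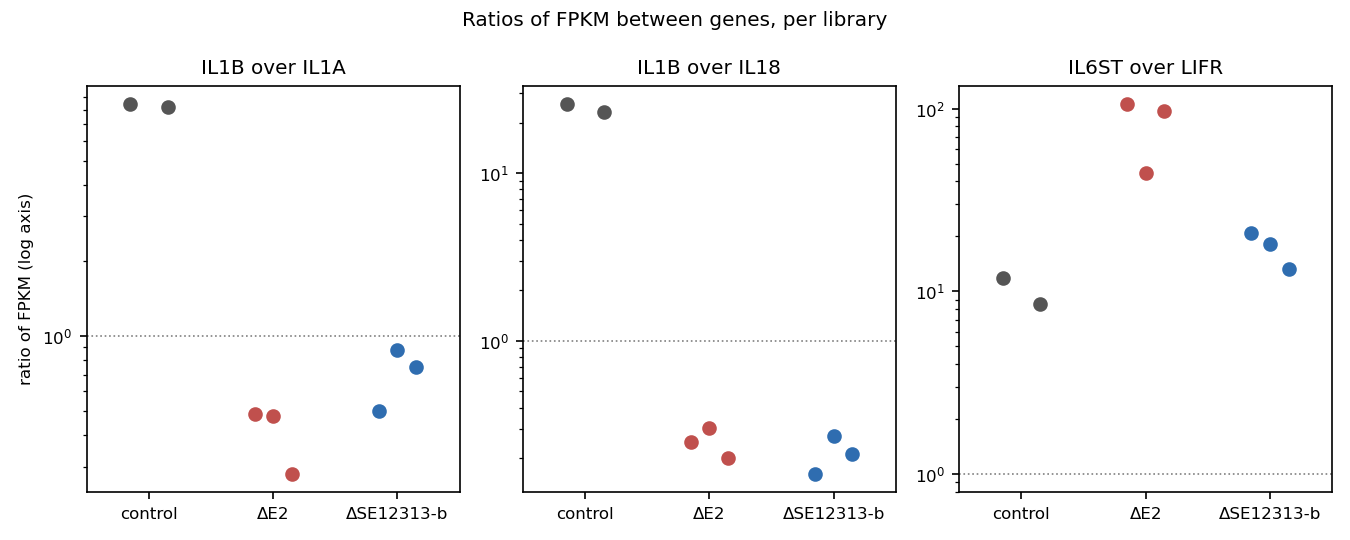
Ratios of FPKM between 2 genes in each library (points, log axis), for IL1B over IL1A, IL1B over IL18 and IL6ST over LIFR, by group. IL1B exceeded IL1A and IL18 in both controls and fell below both in all 6 clones, and the ratio of IL6ST to LIFR was highest in ΔE2.

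In the direct comparison, 3 of the 9 tested genes (IL33, LIF and LIFR) were lower in ΔE2 than in ΔSE12313-b and 0 were higher by 2-fold, whereas 2.63% of all genes were lower and 1.6% were higher by the same limits. IL1A and IL18 had an adjusted p under 0.05 with a difference under 2-fold. IL1B, IL6, IL11 and IL6ST did not pass, with the intervals given above. The median log2 difference of the 9 genes was -0.14, beside -0.11 for all genes.

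Of the other genes of these pathways, 86 were listed and 63 were tested. ΔE2 upregulated 5 and downregulated 7 of them, beside 11.2% and 8.36% of all tested genes. ΔSE12313-b upregulated 6 and downregulated 7, beside 14.7% and 7.83% of all tested genes. In both deletions the share called in all thus lay near the background. With centred libraries ΔE2 upregulated 3 and downregulated 7, where 8.48% and 10.6% of all genes were called. With the same centring ΔSE12313-b upregulated 0 and downregulated 7, where 8.71% and 11.4% of all genes were called. Over the 63 genes the median log2 fold change stood at -0.048 (ΔE2) and 0.13 (ΔSE12313-b), beside 0.14 and 0.27 over all genes.

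IL1A and IL1B open a cluster of 9 IL-1 family ligand genes that spans 360102 bases on chromosome 2. The other 7 were near silent in all groups. IL1RN, the antagonist of the IL-1 receptor, held 2 reads or fewer in every library, as did IL36B, IL36RN and IL1F10. IL37 held 8 and 1 reads in the controls and 0 in all clones, and IL36G 4 and 6 reads in the controls and at most 1 in a clone, and neither was tested. IL36A held 0 reads in both controls, 10, 3 and 9 in ΔE2 and 0, 4 and 0 in ΔSE12313-b, and passed the filter through 2 ΔE2 clones alone. With 3 reads assumed for each control library, the ΔE2 mean of IL36A was 1.87-fold higher, a value that takes that mean as exact. The limma log2 fold change was 2.48 in ΔE2 (adjusted p = 0.0325), and this call was lost without control replicate 1 or 2. Since the filter built in a higher value in ΔE2, the call is no support for a rise. Of the 8 ligands and antagonists other than the 10 genes, the IL-18 binding protein IL18BP, which neutralizes IL-18, was the only other one tested. It had 1.82 and 1.70 FPKM in the controls, 1.01, 1.09 and 1.13 in ΔE2 and 0.638, 0.607 and 0.525 in ΔSE12313-b, which is a log2 fold change of -0.66 for ΔE2 (adjusted p = 0.0155) and of -1.43 for ΔSE12313-b (adjusted p = 0.000303). The 3 groups stood in the opposite order from those of IL18.

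IL1R1 belongs to a second cluster of chromosome 2, with 6 receptor genes over 460719 bases. IL1R2, IL1RL2 and IL18RAP, like IL1R1, held 1 read or fewer in the rows kept in every library. IL1RL1, which encodes ST2, the receptor of IL-33, had 2.85 and 2.80 FPKM in the controls, 32.6, 17.2 and 59.0 in ΔE2 and 2.68, 2.41 and 0.339 in ΔSE12313-b. The ΔE2 clones lay far above all other libraries. The log2 fold change of IL1RL1 was 3.46 ± 0.81 in ΔE2 (adjusted p = 0.00775) and -1.01 ± 0.81 in ΔSE12313-b (adjusted p = 0.308), and the deletions differed by 4.47 ± 0.72 (adjusted p = 0.00403). IL33 was lowest, and IL1RL1 highest, in the same 3 libraries. The 4 rows of IL1RL1 share exons. A row that ends at base 102962560, with 3882 exon bases beside 2045 in the row kept, had similar values. These were 2.72 and 3.16 FPKM in the controls and 32.7, 17.2 and 55.7 in ΔE2. The share of each form was not tested.

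IL18R1, a receptor chain for IL-18 and the neighbour of IL1RL1, had 10 and 3 reads in the controls, 42, 29 and 41 in ΔE2 and 45, 24 and 19 in ΔSE12313-b, and it passed the filter through clones alone. Its log2 fold change was 1.64 in ΔE2 (adjusted p = 0.0165) and 1.35 in ΔSE12313-b (adjusted p = 0.0323). Both calls were lost without control replicate 2, that in ΔE2 without ΔE2 replicate 3, and that in ΔSE12313-b with centred libraries and without ΔSE12313-b replicate 1 or 2. IL1RAP, the co-receptor of IL1R1 and of ST2, had log2 fold changes of -0.33 and 0.22 in ΔE2 and ΔSE12313-b (adjusted p 0.168 and 0.335). SIGIRR, an inhibitory receptor of the family, had values of 0.049 and 0.41, and IL1RAPL1, a neuronal member, 0.56 and 0.75, under 2-fold in each case.

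Caspase-1 (CASP1), which cleaves the precursors of IL-1β and IL-18, had 18.5 and 18.4 FPKM in the controls, 14.8, 15.5 and 15.5 in ΔE2 and 9.13, 5.99 and 12.2 in ΔSE12313-b. Its log2 fold change was -0.27 in ΔE2 (adjusted p = 0.381) and -1.07 in ΔSE12313-b (adjusted p = 0.00623), and the call was lost without ΔSE12313-b replicate 2. Of 12 inflammasome and processing genes, 8 were tested, of which 1 rose and 2 fell in ΔE2 and 0 rose and 2 fell in ΔSE12313-b. Among all tested genes 11.2% rose and 8.36% fell in ΔE2, and 14.7% and 7.83% in ΔSE12313-b. NLRC4, an inflammasome sensor, passed the filter through the controls alone, so a lower value in clones was built in. It had 25 and 24 reads in the controls, 1, 0 and 3 in ΔE2 and 0 in each ΔSE12313-b clone. With 3 reads assumed for each ΔSE12313-b clone, the control mean was 10.3-fold higher. CARD8, another sensor, fell in ΔE2 (-1.14; adjusted p = 3.77e-05) and had -0.70 in ΔSE12313-b, and NEK7, a partner of NLRP3, rose in ΔE2 (1.13; adjusted p = 0.00323) but lost that call with centred libraries. PYCARD, the adaptor of most inflammasomes, and AIM2 were listed at 0 in all 8 libraries.

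Downstream of the IL-1 receptors, 13 of 14 listed signalling genes were tested, of which ΔE2 upregulated 0 and downregulated 1 and ΔSE12313-b upregulated 3 and downregulated 1. The shares of all tested genes were 11.2% up and 8.36% down in ΔE2, and 14.7% and 7.83% in ΔSE12313-b. IRAK2, a kinase that sustains signalling, had 33.3 and 32.3 FPKM in the controls, 10.2, 21.9 and 11.9 in ΔE2 and 11.2, 9.07 and 22.5 in ΔSE12313-b (log2 fold change -1.24 and -1.31; adjusted p 0.0361 and 0.0264). Its calls were lost without either control library, in ΔE2 also without ΔE2 replicate 1 or 3 or ΔSE12313-b replicate 1, and in ΔSE12313-b without ΔSE12313-b replicate 1 or 2. IRAK1 (1.25), the adaptor MYD88 (1.11) and the IkB kinase CHUK (1.07) rose in ΔSE12313-b, and all 3 calls were lost with centred libraries. In ΔE2 the log2 fold change of MYD88 was -0.33 (adjusted p = 0.0794), and the direct difference was -1.44 (adjusted p = 0.000539).

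Of 14 NF-kB subunits and feedback genes 13 were tested, and 2 were called lower in each deletion and 0 higher. Over all tested genes 8.36% were lower and 11.2% higher in ΔE2, and 7.83% and 14.7% in ΔSE12313-b. Counts this small are not read as a fall of the list. The median log2 fold change of the 13 was 0.063 in ΔE2 and 0.20 in ΔSE12313-b. The largest change of the list in ΔE2 was a rise of TNFAIP3 that was not called (1.88, adjusted p = 0.0527). TNFAIP3 had 0.383 to 0.456 FPKM in the controls and 1.00 to 2.86 in ΔE2. It passed the filter on low values through clones alone, so a higher value in clones was built in. RELB, a subunit of NF-kB, had 4.11 and 4.32 FPKM in the controls, 1.20, 1.21 and 1.88 in ΔE2 and 1.46, 1.37 and 1.42 in ΔSE12313-b, with log2 fold changes of -1.52 and -1.51 (adjusted p 0.000473 and 0.000399). NFKBIZ, a nuclear IkB protein that is induced by IL-1, had 9.03 and 10.0 FPKM in the controls, 4.07, 5.26 and 4.18 in ΔE2 and 2.14, 2.63 and 2.73 in ΔSE12313-b (-1.07 and -1.89; adjusted p 0.000724 and 3.16e-05). All clones lay below both controls for both genes, and the call of NFKBIZ in ΔE2 was lost without control replicate 2.

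**Figure D4:**
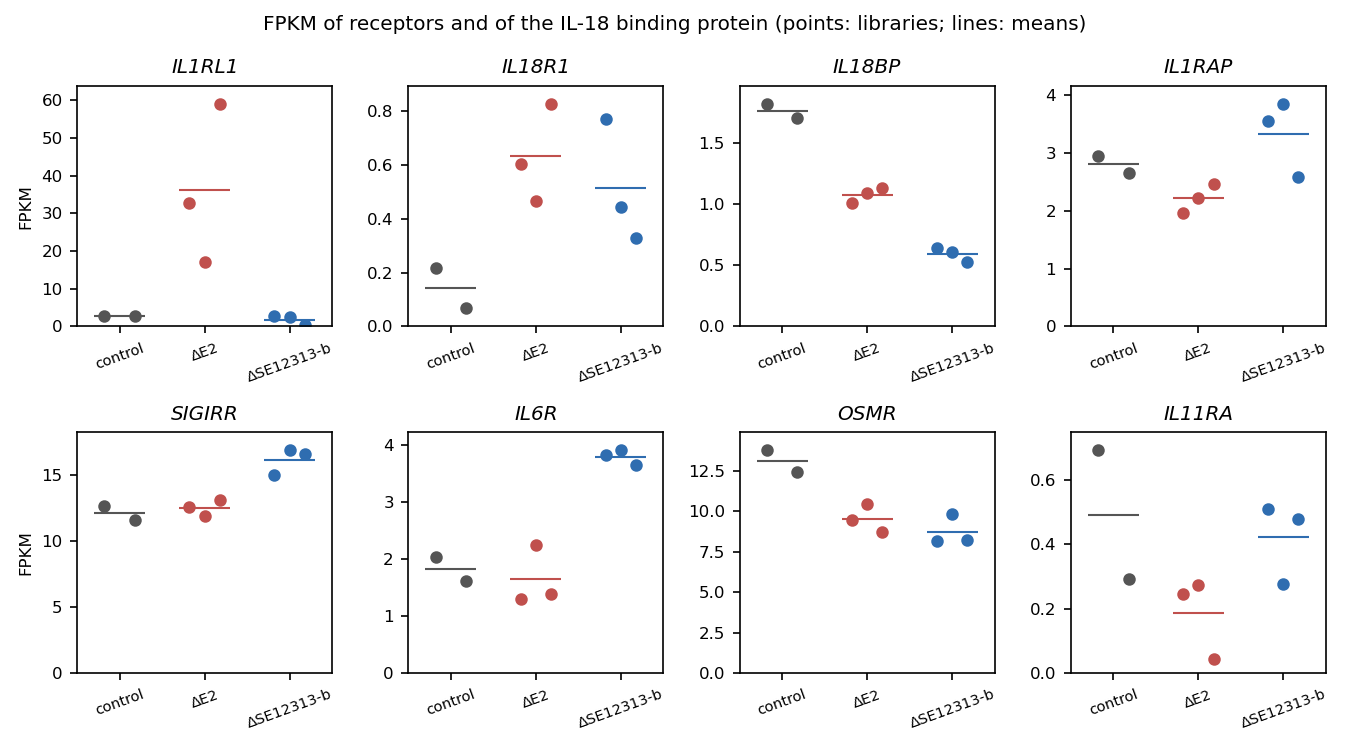
FPKM (linear axis from 0) of receptors of both families and of IL18BP in each library (points) with group means (lines). IL1RL1 was higher in the ΔE2 clones (17.2 to 59.0) than in any other library, IL18BP was lower in all clones, and IL6R was highest in ΔSE12313-b.

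Of the 8 other ligands of the IL-6 family 3 were tested and 0 passed in either deletion. CLCF1 had log2 fold changes of -0.49 and -0.47, EBI3 of -0.27 and 0.13 and CNTF of 0.91 and 0.16 in ΔE2 and ΔSE12313-b. OSM and CTF1 held at most 4 reads in any library, and IL27 and IL31 held 0. Of 6 other receptors 5 were tested. IL6R, the receptor that IL-6 itself binds, had 2.03 and 1.61 FPKM in the controls, 1.29, 2.25 and 1.38 in ΔE2 and 3.82, 3.90 and 3.64 in ΔSE12313-b. Its log2 fold change was -0.18 in ΔE2 (adjusted p = 0.547) and 1.02 in ΔSE12313-b (adjusted p = 0.006), and the deletions differed by -1.20 (adjusted p = 0.00553). The call of IL6R in ΔSE12313-b was lost without control replicate 2 and with centred libraries. OSMR, the partner of gp130 for oncostatin M, had -0.46 and -0.58, IL31RA -0.43 and -0.64, IL27RA 0.16 and -0.29, and IL11RA, with at most 15 reads in a library, -1.08 (adjusted p = 0.138) and -0.12.

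Of 15 genes of JAK-STAT signalling and feedback 14 were tested, of which 1 rose and 2 fell in ΔE2 and 1 rose and 1 fell in ΔSE12313-b, all of them SOCS genes. By the same limits 11.2% of all tested genes rose and 8.36% fell in ΔE2, and 14.7% and 7.83% in ΔSE12313-b. SOCS2, best known as an inhibitor of growth hormone signalling, had 7.19 and 6.91 FPKM in the controls, 0.786, 1.41 and 0.725 in ΔE2 and 1.11, 0.987 and 0.597 in ΔSE12313-b (-2.79 and -2.88; adjusted p 0.000238 and 0.000157). SOCS3, which binds gp130, had 1.67 and 1.97 FPKM in the controls, 4.66, 2.59 and 5.46 in ΔE2 and 6.19, 4.74 and 2.79 in ΔSE12313-b (1.11 and 1.21; adjusted p 0.0386 and 0.025). Both calls of SOCS3 were lost without either control library and with centred libraries, that in ΔE2 also without ΔE2 replicate 1 or 3 or ΔSE12313-b replicate 2, and that in ΔSE12313-b without ΔSE12313-b replicate 1 or 2. SOCS1, an inhibitor of JAK kinases, had -1.27 in ΔE2 (adjusted p = 0.00593) and -0.11 in ΔSE12313-b (adjusted p = 0.746), and the direct difference was -1.16 (adjusted p = 0.0129). Without ΔE2 replicate 2 both of these calls of SOCS1 were lost.

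None of the 10 genes lies on chromosome 16, which carries SE12313 and, near it, ADAMTS18. Within 5 Mb of IL1B, the 40 other tested genes had a median log2 fold change of 0.42 in ΔE2 (quartiles -0.14 and 0.75) and 0.46 in ΔSE12313-b (quartiles -0.015 and 0.89), so the median of the surrounding genes did not share the direction of IL1B and IL1A. Around IL33 the median of 19 genes was 0.10 in ΔE2 and 0.22 in ΔSE12313-b. Around IL6ST the median of 26 genes was 0.25 and 0.39, around IL18 that of 36 genes 0.58 and 0.20, and around LIF that of 69 genes 0.15 and 0.42.

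For each tested gene the 2 genes with the most similar pattern were found by the root mean square difference of log2(FPKM + 0.1), each centred on its own mean, over the 8 libraries. IL18 was closest to TMX1 (0.0746) and CDKN2AIPNL (0.0771), and IL6ST to GSTP1 (0.0636) and MCUB (0.0645), where the SD of IL18 and IL6ST themselves was 0.55 and 0.61. IL1A was closest to APOLD1 (0.0783) and CHKB-CPT1B (0.129), beside its own SD of 0.73. For IL1B, with an SD of 2.39, the nearest were IGFN1 (0.450) and MUC15 (0.470). This distance grows with a gene's own spread, so it does not rank genes of unlike SD by closeness. IGFN1 had a mean of 2.40 FPKM in the control, 0 after loss of E2 and 0.0203 after loss of SE12313-b. Its values in the clones are thus set mostly by the added 0.1. MUC15 had a mean of 7.66 FPKM in the control, 0.241 after loss of E2 and 0.196 after loss of SE12313-b. IL33 was closest to RTN4RL2 (0.249) and RGL3 (0.272), and RTN4RL2 had a mean of 14.1 FPKM in the control, 3.41 after loss of E2 and 16.1 after loss of SE12313-b. IL11 was closest to CHAC1 (0.242) and TMEM9B-AS1 (0.248), LIFR to CYSTM1 (0.229) and CDC42EP5 (0.254), LIF to HAGHL (0.378) and HBE1 (0.379), and IL6 to SNORD5 (0.151) and TERC (0.225).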

How the data were processed

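The authors trimmed reads with Trim Galore 0.4.4, mapped them to GRCh37 with STAR 2.5.4b and deposited FPKM per RefSeq transcript for 8 libraries. The tool and strand setting behind this table are not given in the sources used here. Genes were grouped by the labels, with 1 row per symbol (the highest mean FPKM), and genes reaching 0.5 FPKM in 2 or more libraries were tested on log2(FPKM + 0.1) by limma 3.58.1 in R 4.3.3 (3 groups in 1 model, empirical Bayes with trend, two-sided, Benjamini-Hochberg). A call needed an adjusted p under 0.05 and 2-fold. Whole reads were recovered from the FPKM steps (100% within 0.1 read) and served for depth, the floor of 3 reads per library, and the alternative with voom. The steps were tested on simulated data for ΔE2 against control, where 183 of 200 changed genes among 13458 were called in the right direction. In the same data 16 unchanged genes were also called, and 5 genes were called in a comparison that held no changed genes. The 10 genes, the pathway lists and the naming rule were chosen with earlier results of these data known. That rule names the 10 genes, all other ligands and receptors, the called signalling genes with the largest changes and the 2 nearest patterns per gene. Looking at the rows of IL1RL1 and at both gene clusters was decided after the values were seen. Alternatives were other pseudocounts, filters, scalings, limits and transcripts, a replicate block, each library left out, and only the groups compared. Counts from featureCounts that the authors used for their own calls were not analysed here, and edgeR was not run on FPKM.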

Additional observations from a re-analysis of the deposited data

Results flagged for a closer look

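The effects of both deletions differed for 5 of the 9 tested interleukin 1 and 6 family genes in the direct comparison (limma, adjusted p under 0.05), beside 26.0% of all 13790 tested genes. Taken as ΔE2 minus ΔSE12313-b on the log2 scale, the difference was -2.28 for IL33, -1.61 for LIF and -1.78 for LIFR, with every ΔE2 clone below every ΔSE12313-b clone in all 3 genes. It was 0.63 for IL1A and -0.38 for IL18, both under 2-fold, and again without overlap of the clones. Among the other pathway genes it was 4.47 for IL1RL1, -1.44 for MYD88, -1.20 for IL6R and -1.16 for SOCS1, each past 2-fold. Since the controls are shared, these are differences between 3 clones and 3 clones, with an error estimated in the model of all 3 groups. No group holds 4 or more libraries, so single libraries were not tested as outliers.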

How the results depend on the processing

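Over all alternatives, the calls of IL1A, IL1B, IL33, LIF and IL6ST in ΔE2, of IL1A, IL1B and IL18 in ΔSE12313-b, and of IL33 between the deletions kept their direction and their side of the limits wherever the gene was tested. IL6 and IL11 were not tested without either control, nor IL6, IL11 and LIFR with a mean FPKM of at least 1. Leaving out 1 library at a time gave 6 to 8 called genes of the families in ΔE2, 4 to 6 in ΔSE12313-b and 2 to 3 between the deletions. Without a control 7 of these genes were tested, and otherwise 9, among them IL6 and IL11, whose lower value in clones was built in. Over all genes the same fits gave 2230 to 2871, 2620 to 3175 and 474 to 663 calls. With a pseudocount of 1 only 1 gene of the families was called between the deletions (IL33), where LIFR had -0.83 and LIF -0.71. Differences that were not called turned their sign for IL1B between the deletions (-0.34 to 0.074 without 1 library, positive without ΔSE12313-b replicate 2), for IL33 in ΔSE12313-b (-0.14 centred, -0.13 quantile, -0.027 to 0.31 without 1 library) and for IL11 between the deletions (0.019 centred, -0.39 to 0.053 without 1 library); the cause was not tested. Same-numbered replicates did not deviate together (correlations -0.0804 to 0.107), so the numbers do not pair the samples. With the replicate block 8, 5 and 3 of the 9 genes were called in the 3 comparisons, beside 2530, 2962 and 523 of all 13790. The block lost the calls of IL6 in ΔSE12313-b, of IL36A and IRAK2 in ΔE2 and of SOCS3 in both deletions. Among the 63 other pathway genes, a limit of 1.5-fold raised the calls from 12 to 20 in ΔE2, from 13 to 27 in ΔSE12313-b and from 4 to 10 between the deletions. A pseudocount of 1 lowered them to 6, 5 and 2. Calls over all 13790 tested genes moved the same way. The limit of 1.5-fold raised those from 2697 to 5054, from 3112 to 5802 and from 583 to 1631. With the pseudocount of 1 they were 1718, 2004 and 240. Depth limits IL6, IL1R1 and IL36A, with 11 reads or fewer in every library.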
